A study of Mus musculus with 12 samples.

Results

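The transcripts described here are 8 pseudogenes, predicted genes and noncoding transcripts whose counts in the mouse prefrontal cortex (PFC) looked switched on or off between groups of animals: Rps26-ps1, Gm10039, Gm6612, Gm6505, Gm15772, Gm3636, Gm5134 and D030028A08Rik. They are 8 of the 41388 genes in the count table, and they were picked by name after their differences between these groups had been seen. Their own values are therefore given library by library as a description, the calls counted among them support nothing, and the question is whether presence followed the group or single libraries. GRCm38 annotation lists 5 of them as processed pseudogenes, Rps26-ps1 among them as a transcribed one, and it lists Gm3636 and Gm5134 as protein coding and D030028A08Rik as a processed transcript. The words on and off do not hold for all of them, because Gm15772, Gm10039 and D030028A08Rik had at least 22 counts in each of the 12 libraries and differed in level only.

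A processed pseudogene arises when the messenger RNA of a gene, its source, is copied back into DNA and inserted elsewhere in the genome without introns. Genes that are strongly expressed in all cells, such as those of ribosomal and mitochondrial proteins, have many such copies, and most copies have no promoter of their own. A recent copy keeps nearly the whole coding sequence of its source, so that only reads covering a differing base can tell them apart, and copies can be present in some mouse strains or individuals and absent from others.

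All 12 libraries came from the PFC of male Swiss Webster mice aged 10 weeks, with 4 libraries a group. Conventionally raised mice (CON) were compared with germ-free mice (GF), kept in isolators, and with mice born germ-free and moved on postnatal day 21 to a standard animal unit where microbes colonised them (exGF). RNA of 2 to 3 animals was pooled and polyA-selected for each library, so a value is the mean of a pool and not of an animal, and a transcript present in part of a pool cannot be told from a lower level in all of it. GF and CON mice were first-generation offspring of GF and of CON breeding pairs of this outbred stock, and exGF mice were taken from the GF isolators, so colony of origin and absence of microbes at birth cannot be told apart. The exGF columns are named GFR1 to GFR4, and these numbers are names only.

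Library depth, as pairs counted on genes, was 22757169 to 29134760 for CON, 13280926 to 23465074 for GF and 22702599 to 28615407 for exGF, with GF replicate 1 the shallowest. The share of read pairs aligned to several places, which were not counted on any gene, was 12.95% to 19.23% per library. Between libraries of the same group the chi-square of a gene averaged 9.26 to 40.2, where counting error alone gives about 1. Markers of cortical excitatory neurons summed to between 6913 and 8457 CPM in every library, CPM being counts scaled to a common library size. Those of liver and of gut and kidney stayed at or below 1.11 CPM. Striatal markers summed to 13.7 to 56.1 CPM in CON, 16.5 to 20.5 in GF and 17.5 to 44.9 in exGF. In the same order, meningeal markers summed to 27.28 to 39.06, 18.52 to 26.95 and 22.25 to 27.74 CPM. Choroid plexus markers summed to 4.88 to 5.54, 2.59 to 12.6 and 2.24 to 5.37 CPM. What these tissues contributed to the values below was not tested. The 4 oligodendrocyte markers summed to 1604 to 1984 CPM for CON, 2509 to 4180 for GF and 1603 to 2649 for exGF, and their part in the values below was not tested. In bulk RNA fewer cells of a type and less RNA per cell cannot be told apart.

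The sequences that make the copies hard to count are shown first. Rps26-ps1 is set against its source Rps26, which encodes a protein of the small ribosomal subunit. The stretch covers coding bases 1 to 300 of 348, read from GRCm38 at chr8:107439263-107439562 (minus strand) for Rps26-ps1 and from the spliced coding sequence of Rps26 (chr10:128624534-128626747, minus strand). Capitals mark the bases that differ.
Rps26-ps1: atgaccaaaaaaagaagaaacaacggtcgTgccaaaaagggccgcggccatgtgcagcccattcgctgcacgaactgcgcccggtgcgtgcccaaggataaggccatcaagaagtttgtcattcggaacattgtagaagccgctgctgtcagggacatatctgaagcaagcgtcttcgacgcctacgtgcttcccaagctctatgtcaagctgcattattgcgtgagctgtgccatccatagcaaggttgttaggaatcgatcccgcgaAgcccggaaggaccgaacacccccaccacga
Rps26: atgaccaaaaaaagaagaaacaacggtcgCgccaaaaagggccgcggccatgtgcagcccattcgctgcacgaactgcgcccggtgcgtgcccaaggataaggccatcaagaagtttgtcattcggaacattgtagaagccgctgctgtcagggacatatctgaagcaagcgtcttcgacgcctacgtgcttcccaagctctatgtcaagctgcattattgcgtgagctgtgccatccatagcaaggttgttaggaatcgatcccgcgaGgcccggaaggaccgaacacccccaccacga

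Gm10039 and Gm6612 are copies of the same gene, Atp5g1, which encodes the ring subunit c of the mitochondrial ATP synthase, and they are shown because they went opposite ways in the libraries. The stretch covers coding bases 112 to 411 of 411, at chr11:100361716-100362015 (minus strand) for Gm10039 and at chr15:80952616-80952899 (plus strand) for Gm6612, beside the spliced Atp5g1 (chr11:96068852-96075670, minus strand). Capitals mark bases that differ from Atp5g1 in the copies, and in Atp5g1 the bases that differ in or are missing from a copy.
Gm10039: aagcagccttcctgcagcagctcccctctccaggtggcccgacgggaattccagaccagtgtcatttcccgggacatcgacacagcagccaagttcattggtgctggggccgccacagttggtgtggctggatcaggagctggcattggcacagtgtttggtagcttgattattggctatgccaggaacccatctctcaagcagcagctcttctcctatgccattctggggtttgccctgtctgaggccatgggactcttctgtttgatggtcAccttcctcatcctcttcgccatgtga
Gm6612: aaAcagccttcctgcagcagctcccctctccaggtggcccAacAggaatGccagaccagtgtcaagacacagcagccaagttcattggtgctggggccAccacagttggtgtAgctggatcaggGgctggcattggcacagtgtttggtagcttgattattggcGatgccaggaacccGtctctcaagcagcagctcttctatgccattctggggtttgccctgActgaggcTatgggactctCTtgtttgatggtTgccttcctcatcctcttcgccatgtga
Atp5g1: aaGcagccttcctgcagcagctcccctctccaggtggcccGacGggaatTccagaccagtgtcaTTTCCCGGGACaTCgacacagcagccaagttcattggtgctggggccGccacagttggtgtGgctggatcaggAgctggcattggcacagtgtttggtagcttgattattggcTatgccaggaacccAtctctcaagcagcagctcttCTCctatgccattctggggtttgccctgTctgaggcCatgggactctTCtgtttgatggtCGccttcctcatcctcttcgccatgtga

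Gm15772 is a copy of Rpl26, which encodes a protein of the large ribosomal subunit, and both differing bases of the pair fall within coding bases 151 to 300 of 438. They are read at chr5:3236581-3236730 (plus strand) for Gm15772 and from the spliced Rpl26 (chr11:68901583-68906989, plus strand), with the differing bases in capitals.
Gm15772: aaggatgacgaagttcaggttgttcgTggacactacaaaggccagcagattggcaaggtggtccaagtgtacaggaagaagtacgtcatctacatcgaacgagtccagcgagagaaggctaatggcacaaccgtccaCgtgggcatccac
Rpl26: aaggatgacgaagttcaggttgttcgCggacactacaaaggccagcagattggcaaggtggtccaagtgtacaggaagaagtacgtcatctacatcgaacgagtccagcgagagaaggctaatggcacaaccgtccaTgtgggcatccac

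Over whole coding sequences, Rps26-ps1 matched Rps26 with 2 substitutions in 348 bases (99.4% identity), Gm10039 matched Atp5g1 with 1 in 411 (99.8%), Gm15772 matched Rpl26 with 2 in 438 (99.5%) and Gm6505 matched Yae1d1 with 3 in 648 (99.5%). Read in the frame of their sources, Rps26-ps1, Gm10039 and Gm15772 reach no stop before the stop codon of the source. Gm6612 was the divergent copy, with 16 substitutions and 16 gap columns against Atp5g1 (92.2% identity). Cut into words of 31 bases, Rps26-ps1, Gm10039, Gm6505, Gm15772 and Gm3636 had 85.0% to 96.6% of their words in the exons of other annotated genes. The share was 12.3% in Gm6612, 5.20% in Gm5134 and 22.4% in D030028A08Rik. In windows of 100 bases, the share found in no other annotated transcript was 8.65% in Gm10039, 31.9% in Gm3636, 36.2% in Gm6505, 42.0% in Rps26-ps1, 54.9% in Gm15772 and 100% in Gm6612.

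**Figure D1:**
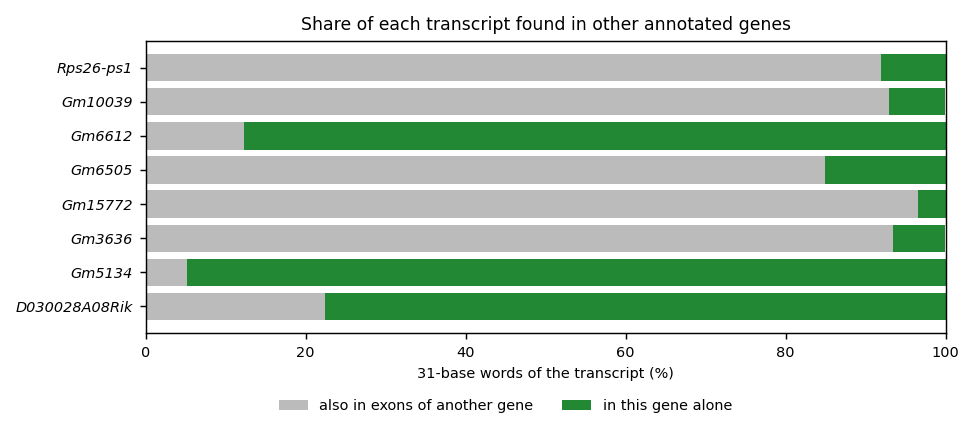
Horizontal bars give, for each of the 8 transcripts, the percentage of its 31-base words that also occur in exons of another annotated gene (grey) and that occur in it alone (green). Words found in it alone are 3.43% of Gm15772 and 94.8% of Gm5134.

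Rps26-ps1 lies at chr8:107439131-107439579 on the minus strand, inside the span of Wwp2, a ubiquitin ligase gene on the opposite strand, with no exon bases in common. Its counts in CON replicates 1 to 4 were 131, 428, 272 and 125. In GF replicates 1 to 4 it had 1, 13, 3 and 12 counts, and in GFR1 to GFR4 it had 7, 9, 9 and 7. Every CON library stood far above every GF and exGF library, which stayed near the level of a few counts, and GF and exGF overlapped. Normalised means were 9.42 ± 6.22 CPM for CON, 0.370 ± 0.295 for GF and 0.309 ± 0.0627 for exGF (SD, n = 4 each). The log2 fold change was -4.55 (SE 0.53) in GF and -4.93 (SE 0.48) in exGF relative to CON. Within CON the highest library was 3.83 times the lowest, a ratio that 2.92% of all tested genes reached, and CON replicate 2 was the high one.

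Gm15772, at chr5:3236431-3236868 on the plus strand, was the most abundant of the 8 and was absent nowhere. Its normalised count was 105, 96.2, 95.0 and 71.4 CPM in CON replicates 1 to 4. It was 132, 88.1, 68.6 and 72.6 CPM in GF replicates 1 to 4, and 31.7, 30.1, 42.6 and 59.3 CPM in GFR1 to GFR4. CON and GF overlapped fully, and every exGF library lay below every library of both. The log2 fold change was -0.03 (SE 0.18) from CON to GF, -1.17 (SE 0.19) from CON to exGF and -1.13 (SE 0.23) from GF to exGF. The libraries of exGF and GF thus did not overlap for Gm15772, as they did for each of the other 7, and GF replicate 1 was its highest library. The change from GF to exGF was not called (edgeR, adjusted p = 0.574).

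Gm10039 lies between Hap1 and Jup at chr11:100361716-100362126 on the minus strand and overlaps no annotated gene. It had 528, 1060, 971 and 551 counts in CON replicates 1 to 4. Counts were 32, 40, 163 and 107 in GF replicates 1 to 4 and 197, 123, 197 and 51 in GFR1 to GFR4. All GF and exGF libraries were below all CON libraries but well above the floor of 3 counts, and GF replicates 1 and 2 and GFR4 were the lowest. Normalised means were 30.2 ± 11.4 CPM for CON, 4.71 ± 3.25 for GF and 5.54 ± 2.79 for exGF (SD, n = 4 each), with a log2 fold change of -2.68 (SE 0.38) in GF and -2.47 (SE 0.36) in exGF. Replicate 2 was the highest CON library and replicate 3 the next for Gm10039 (45.2 and 33.1 CPM) as for Rps26-ps1 (18.3 and 9.28 CPM).

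Gm6612, at chr15:80952505-80952899 on the plus strand, sits in an intron of Adsl, the gene of the purine synthesis enzyme adenylosuccinate lyase, in the same direction. It had 1, 0, 0 and 0 counts in CON replicates 1 to 4. In GF replicates 1 to 4 it had 22, 20, 11 and 12 counts, and in GFR1 to GFR4 it had 13, 11, 21 and 24. It was the member whose presence followed the group most plainly, in all 8 GF and exGF libraries and in no CON library above 1 count. Against a floor of 3 counts in each CON library, its mean in GF was at least 8.10-fold higher, and that in exGF at least 5.51-fold higher. Its normalised mean was 0.946 ± 0.478 CPM in GF and 0.643 ± 0.163 in exGF (SD, n = 4 each), and those groups overlapped.

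Gm6505, at chr3:28764713-28765360 on the minus strand, is a copy of Yae1d1, whose product takes part in the maturation of an iron-sulfur protein, and it lies within the antisense gene 1700112D23Rik, which had at most 8 counts in any library. It had 13, 10, 26 and 20 counts in CON replicates 1 to 4. In GF replicates 1 to 4 it had 0, 0, 2 and 0 counts. In GFR1 to GFR4 it had 5, 9, 0 and 0. It was present in every CON pool, at or below the floor in every GF pool, and split within exGF, where 2 of the 4 pools had more than 3 counts. The mean was at least 3.82-fold lower in GF against the floor. The log2 fold change in exGF was -2.23 (SE 0.71) and was not called (edgeR, adjusted p = 0.683).

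**Figure D2:**
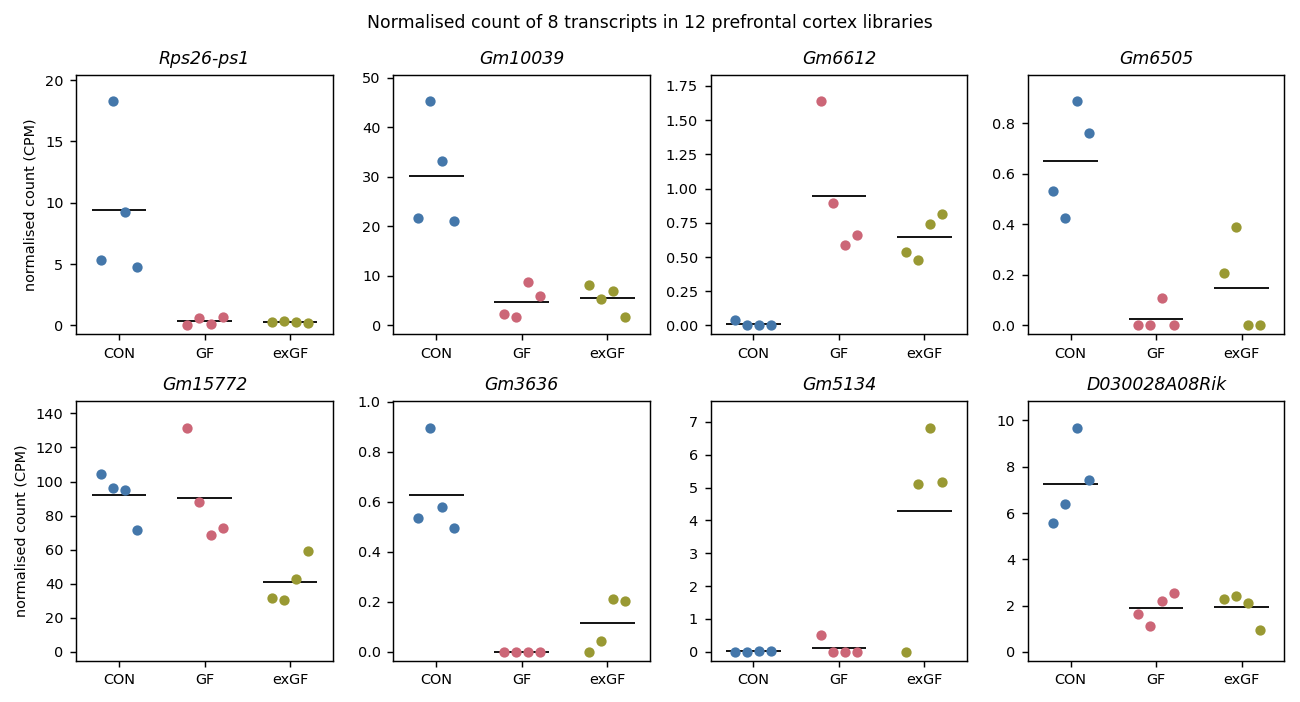
Each panel shows one transcript, with the normalised count (CPM, linear axis from 0) of each of the 12 libraries as a dot and the mean of the 4 libraries of a group as a black line. Gm6612 lies at or near 0 in CON alone, Gm5134 is raised in GFR2, GFR3 and GFR4 only (5.10 to 6.82 CPM), and Gm15772 is lower in exGF but present in all libraries.

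Gm3636 is a predicted protein coding gene at chr14:6735685-6742332 on the minus strand, in a cluster of near-identical genes. It had 13, 21, 17 and 13 counts in CON replicates 1 to 4 and 0 counts in all 4 GF replicates. GFR1 to GFR4 had 0, 1, 6 and 6 counts. The gene Gm26680, which spans it on the opposite strand, had 1 to 6 counts in CON and 0 in all GF and exGF libraries. The CON libraries of Gm3636 lay above all others, with a mean at least 3.66-fold higher than the GF floor, and exGF was split into 2 pools below and 2 above 3 counts. The pools above 3 counts were GFR3 and GFR4 for Gm3636 but GFR1 and GFR2 for Gm6505, so at this cut the split did not run through the same pools. These pools had at most 9 counts, close to the cut. There were 25 other genes that held at least 50% of the words of Gm3636, and their summed counts ran from 67 to 128 for CON, 28 to 43 for GF and 70 to 85 for exGF. These sums are not scaled for depth, whose median was 25210592 for CON, 18818716 for GF and 26345712 for exGF. Of these 25 genes 2 passed the filter on low counts, and neither was called in any comparison (edgeR, lowest adjusted p = 0.519). Relative to CON their log2 fold changes were -1.21 and -0.65 in GF, and -0.40 and 0.18 in exGF. The one closest in sequence, Gm3591, had at most 2 counts in any library, and which of these genes a read came from is uncertain.

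Gm5134 is a protein coding gene of 15 merged exons at chr10:75954514-76009591 on the plus strand, 47903 bases from the sugar transporter gene Slc5a4b, with which it shared 17 words of 31 bases. It had 0, 0, 1 and 1 counts in CON replicates 1 to 4. In GF replicates 1 to 4 it had 7, 0, 0 and 0 counts. In GFR1 to GFR4 it had 0, 118, 193 and 152 counts. It did not follow the group, since 3 exGF pools had more than 100 counts and GFR1 had none, and the only other library above 3 counts was GF replicate 1. Slc5a4b had at most 3 counts in any library, and the genes Gm16219 and Mir6409 within Gm5134 had no count in any library, while Gm16220 had at most 1. Gm5134 did not pass the filter on low counts in either comparison with CON, and its groups overlapped in every comparison. It was called between CON and exGF without that filter, by DESeq2, in a fit of all 12 libraries and with GFR1 left out. As it was chosen on these contrasts, these calls are a description only.

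D030028A08Rik is a noncoding transcript with 14 merged exons spread over chr11:96916270-96965060 on the plus strand. Its counts were 136, 150, 284 and 195 in CON replicates 1 to 4. They were 22, 25, 41 and 46 in GF replicates 1 to 4 and 55, 56, 60 and 28 in GFR1 to GFR4. All CON libraries were above all others, GF and exGF overlapped, and no library came near 0. Normalised means were 7.27 ± 1.78 CPM for CON, 1.87 ± 0.624 for GF and 1.94 ± 0.671 for exGF (SD, n = 4 each), and the log2 fold change was -1.97 (SE 0.25) in GF and -1.93 (SE 0.26) in exGF. Its exons share 227 bases with Cdk5rap3 and 126 with Sp2, both on the opposite strand. Pairs were counted without regard to strand, so pairs lying wholly in the shared bases were set aside as falling on several genes. Cdk5rap3 and Sp2 were not called, with log2 fold changes of -0.23 (SE 0.13) and 0.01 (SE 0.15) in GF. Gm11525 and Prr15l, which also overlap it, had 0 to 4 and 2 to 7 counts in CON, 0 to 1 and 0 to 5 in GF, and 0 to 1 and 0 to 3 in exGF.

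The genes that the copies came from were tested, since they were not used in choosing the transcripts. Rps26 had a mean of 111 ± 20.6 CPM for CON, 124 ± 9.78 for GF and 97.0 ± 18.6 for exGF (SD, n = 4 each), a log2 fold change of 0.16 (SE 0.12) in GF and -0.20 (SE 0.15) in exGF. The mean of Atp5g1 was 119 ± 15.8 CPM (CON), 144 ± 21.5 (GF) and 136 ± 25.0 (exGF), with a log2 fold change of 0.27 (SE 0.12) in GF and 0.18 (SE 0.13) in exGF. Rpl26 varied most between pools, from 50.4 to 164 CPM within CON alone, with a log2 fold change of 0.22 (SE 0.26) in GF and 0.36 (SE 0.28) in exGF. Yae1d1 was at 14.7 to 16.9 CPM for CON, 20.8 to 22.5 for GF and 16.6 to 22.1 for exGF, so that GF lay above CON without overlap while its copy Gm6505 was at or below the floor in GF. Its log2 fold change in GF was 0.42 (SE 0.10). None of these passed the threshold of 0.1 (edgeR with Benjamini-Hochberg adjustment over all tested genes, adjusted p = 0.758, 0.538, 0.859 and 0.144 in GF for Rps26, Atp5g1, Rpl26 and Yae1d1). A p above the threshold does not show that a gene was unchanged.

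Per 100 counts on its source, Rps26-ps1 had 4.21 to 14.8 counts in CON, 0.0637 to 0.574 in GF and 0.207 to 0.534 in exGF. Gm10039 had 17.4 to 34.4 counts per 100 of Atp5g1 for CON, 1.36 to 6.24 for GF and 1.03 to 6.14 for exGF. These ratios separate CON from the other groups as the normalised counts do. Gm15772 stood at 58.7 to 142 counts per 100 of Rpl26 for CON, 57.7 to 156 for GF and 20.7 to 36.2 for exGF. Its count was below that of Rpl26 in every exGF library, and above it in some CON and GF libraries and below it in others. In GF replicates 2 to 4 the ratio lay between 57.7 and 58.1, and GF replicate 1 stood apart at 156, the library with the lowest Rpl26 count in its group. Gm6505 had 2.61 to 5.26 counts per 100 of Yae1d1 for CON, 0 to 0.495 for GF and 0 to 2.14 for exGF, and Gm6612 had 0.421 to 0.935 per 100 of Atp5g1 in GF.

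**Figure D3:**
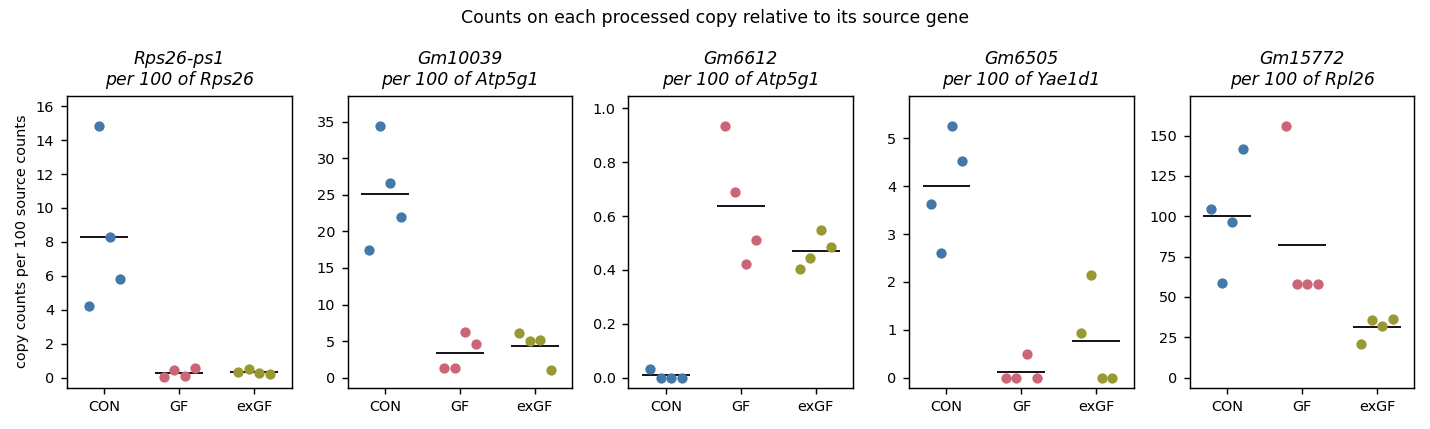
Each panel gives the counts on a processed copy per 100 counts on its source gene (linear axis), with a dot per library and a black line at the mean of the 4 libraries of a group. The CON libraries of Rps26-ps1 (4.21 to 14.8) and Gm10039 (17.4 to 34.4) lie above all GF and exGF libraries, and the exGF libraries of Gm15772 (20.7 to 36.2) lie below all others.

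Among 32 source, overlapping and neighbouring genes, 22 could be tested between CON and GF and 23 in each of the other comparisons, and none was called by edgeR in any of them. At an unadjusted edgeR p under 0.05 there were 4, 0 and 2 in CON against GF, CON against exGF and GF against exGF. Over all tested genes these counts were 1350 of 15542, 843 of 15813 and 1035 of 15569. DESeq2 called 3, 0 and 0 of the related genes, the 3 being Eif5a2, Hap1 and Yae1d1. The median log2 fold change of the tested related genes was -0.0039 in GF and 0.02 in exGF, beside 0.01 and -0.01 over all tested genes. Hap1, which encodes a huntingtin-binding transport protein and lies 5588 bases from Gm10039, had 126 ± 18.4 CPM in CON and 91.6 ± 9.60 in GF (SD, n = 4 each), with a log2 fold change of -0.46 (SE 0.11) and an adjusted p of 0.155 by edgeR. It passed the threshold with the replicate number as a block, without the filter on low counts and by DESeq2. Jup, 6832 bases away on the other side, had a log2 fold change of -0.03 in GF. The hosts Wwp2 and Adsl had log2 fold changes of -0.11 (SE 0.09) and 0.03 (SE 0.10) in GF, and the sign for Adsl turned when GF replicate 1 was left out (-0.05) or CON replicate 4 was left out (-0.01).

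**Figure D4:**
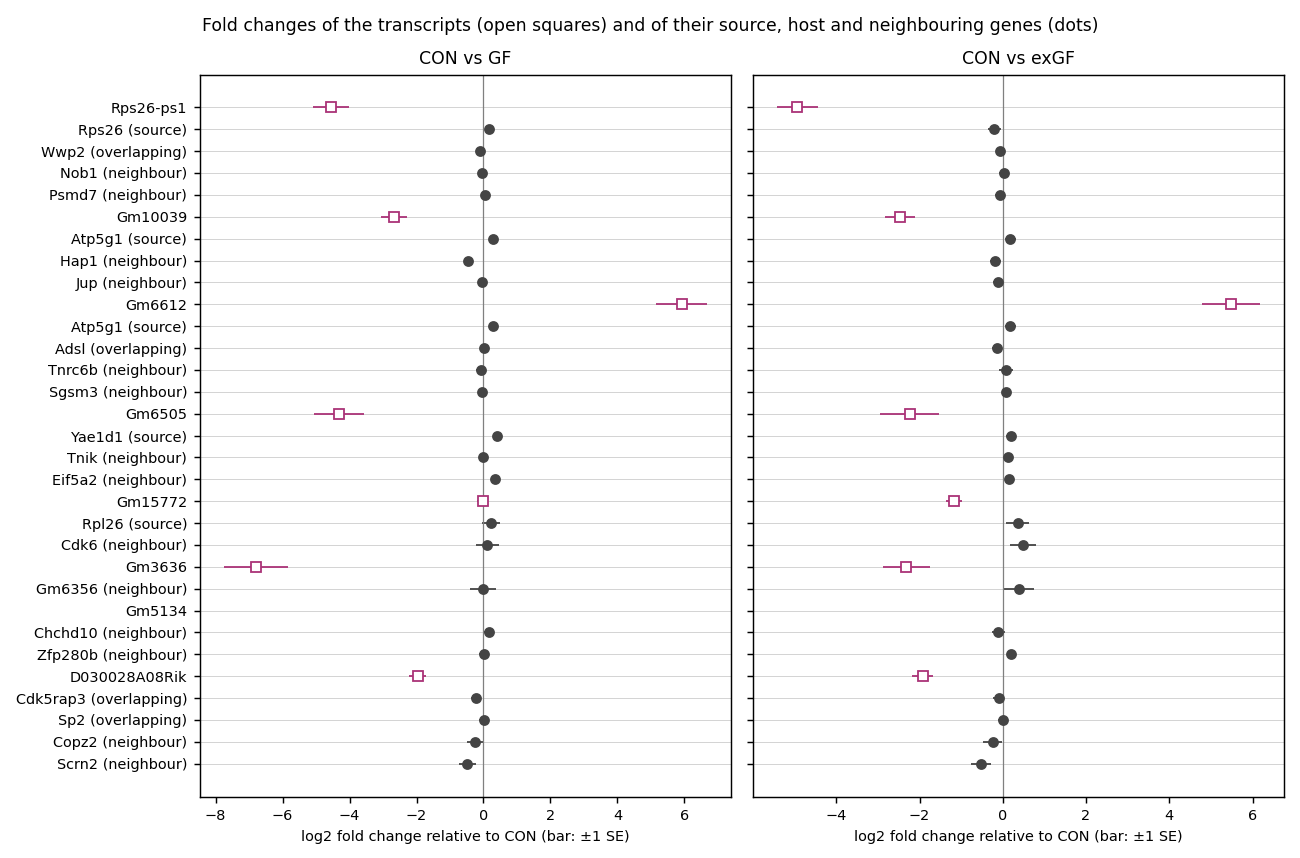
Log2 fold change relative to CON (bars, ±1 SE) in GF (left) and exGF (right) for the transcripts (open squares) and related genes (dots). Related genes are the source, overlapping and nearest tested genes of each, drawn only where tested between CON and GF. Gm2974, a neighbour of Gm3636 not tested there, is not drawn, and its log2 fold change in exGF was 0.92 (SE 0.53). The panels have different axis ranges. The dots lie between -0.48 and 0.42 in GF, while 5 squares lie at -1.97 or below and Gm6612 lies at 5.91.

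Within 5 Mb on each side of the transcripts, few other genes were called. Around Gm10039, 206 genes were tested between CON and GF, and the only one called was D030028A08Rik, which lies 3396655 bases away on chromosome 11. The reverse held for the 168 genes tested around D030028A08Rik. Both were chosen on these contrasts, so each being called near the other follows from the choice. Outside the 8 transcripts no gene was called in either window, and 0.251% of all tested genes were called between CON and GF. In the windows of the other members the only call in either comparison with CON was Cldn11, a myelin tight-junction gene, near Gm6505 (log2 fold change 0.75 in GF, adjusted p = 0.0214 by edgeR). Gm10039 and D030028A08Rik were also each other's most similar gene among 16032, by the correlation of log2 CPM over the 12 libraries (r = 0.95). In normalised counts GF replicate 2 was the lowest GF library and GFR4 the lowest exGF library for both transcripts, but their order in CON differed, with replicate 2 highest for Gm10039 and replicate 3 for D030028A08Rik. The 12 libraries share their groups, so such correlations largely restate the difference between groups.

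By the same measure the most similar genes to Rps26-ps1 were Tnfaip8l1 (r = 0.93) and St7 (r = 0.91), those to Gm6612 were Mir22hg (r = 0.91) and the circadian factor gene Dbp (r = 0.89), and those to Gm3636 were the GABA transporter gene Slc6a13 (r = 0.94) and Gm12462 (r = 0.93). Gm6505 was most like the noncoding B230217O12Rik (r = 0.89) and Gm12290 (r = 0.86), Gm15772 was most like Gm13340 (r = 0.91) and Glipr2 (r = 0.90), and Gm5134 was most like Crtc2 (r = 0.92) and Tmc6 (r = 0.91). The genes after D030028A08Rik and Gm10039 in their own orders were Gm1840 for Gm10039 (r = 0.88) and the Fc receptor gene Fcgr2b for D030028A08Rik (r = 0.92). Tnfaip8l1 ran only from 7.51 to 11.5 CPM, whereas Gm12462 ran from 0 to 1.20 CPM.

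Counting a transcript as present above 3 counts, 6 of the 8 were present in every CON library, 4 or 5 in each GF library and 6 or 7 in each exGF library. In CON the 2 that were missing were Gm6612 and Gm5134 in every library. Gm6505 and Gm3636 were present in every CON library and in no GF library, and Gm6612 in every GF and no CON library. Rps26-ps1 passed 3 counts in 2 GF and 4 exGF libraries, Gm6505 and Gm3636 in 2 exGF libraries each, and Gm5134 in 1 GF and 3 exGF libraries. At this cut, presence of these thus changed from pool to pool within a group. The exGF presences of Rps26-ps1, Gm6505 and Gm3636 rested on at most 9 counts, and that of Gm5134 in GF on 7. With presence set at 10 counts, presences summed over the 8 transcripts fell from 27 to 19 in exGF and from 19 to 18 in GF. They stayed at 24 in CON, and a cut of 0.2 CPM left these sums unchanged. Of the 7 transcripts that passed the filter on low counts between CON and GF, 6 were called, against 0.251% of all 15542 genes tested. Between CON and exGF 5 of 7 were called, against 0.0696% of 15813. Those tested and not called were Gm15772 in GF, and Gm6505 and Gm3636 in exGF. CON and GF did not overlap for 6 of the 8 (5.08% of tested genes), CON and exGF for 7 (3.31%), and GF and exGF only for Gm15772 (3.32%). The transcripts were chosen on these contrasts, and several passed the filter only through the group where they were high, so nothing is read from these counts.

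Among all genes counted, 5 had at most 3 counts in every library of one group and at least 10 in every library of the other between CON and GF, which is 0.0333% of the 15017 genes that could have done so. They were Gm6612, Gm6505 and Gm3636 with the interferon-induced family gene Ifit1bl1 and the antisense gene Gm12462. Between CON and exGF there were 2 such genes of 15296 (0.0131%), Gm6612 and the processed pseudogene Gm14150, and between GF and exGF there were 0 of 15086. Gm14150 was the only pseudogene outside the 8 that was called in any comparison (log2 fold change -6.39 in exGF, adjusted p = 3.57e-06 by edgeR), with 141 to 251 counts in CON, 5 to 73 in GF and 1 to 3 in exGF. Apart from it, none of 260 other pseudogenes tested in CON against GF and 287 in CON against exGF was called. At an unadjusted edgeR p under 0.05 there were 31 and 25, beside 1350 of 15542 and 843 of 15813 over all tested genes. Of 88 and 89 ribosomal protein genes, 16 ribosomal protein pseudogenes in each and 3 genes of ATP synthase subunit c, none was called in these comparisons, and the median log2 fold change of the ribosomal protein genes was -0.0043 in GF and -0.19 in exGF.

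Genes that were present in some pools of a group and missing from others were also counted, as those with at most 3 counts in 1 library and at least 50 in another of the same group. There were 9 for CON, 6 for GF and 10 for exGF, and Gm5134 was the only one of the 8 transcripts among them. GFR1 was the lowest library for 6 of the 10 in exGF. For Ifit1bl1 GFR1 had 0 counts and the other exGF pools had 38, 46 and 65, beside 38 to 87 in CON and 0 to 2 in GF. The noncoding 1500004A13Rik had 0 counts in GFR1 and 986, 647 and 307 in GFR2 to GFR4, as well as 2 in CON replicate 2 against 315 to 945 in the other CON pools and at most 5 in GF. Gm5134 thus shared its missing pool with these genes, and differed from them in being at or near 0 in every CON pool.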

How the data were processed

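The deposited table holds raw counts of read pairs for 41388 genes in 12 libraries, without normalization. According to their methods, the authors used Trimmomatic 0.32 to trim paired reads of polyA-selected RNA and STAR (2.3.1u in the submitters' processing notes, another version in the methods) to align them to GRCm38, and counted uniquely aligned pairs on Ensembl release 78 genes with HTSeq 0.6.0, without regard to strand. Rows for pairs given to no gene were left out. Pairs outside genes made up 4.57% to 7.31% of a library, pairs on several genes 1.10% to 1.32%, and multiply aligned pairs 12.95% to 19.23%. The exGF libraries carry no matched replicate number.

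From these counts, each pair of groups was fitted on all genes with edgeR 4.0.16 in R 4.3.3 (filterByExpr, TMM, quasi-likelihood test, Benjamini-Hochberg adjustment over all tested genes, called under 0.1). SE was derived from the test, as the size of the fitted log2 fold change divided by the square root of its quasi-likelihood F statistic. CPM are TMM-normalized, and log2 CPM use a prior count of 1. A floor of 3 counts a library was set where no library of a group exceeded it, and bounds from it cover counting error only. p-values measure the spread between pools. Names, exons and transcripts came from a GRCm38 annotation (GENCODE), in which 40254 genes had a symbol. Source genes were the protein coding genes holding most 31-base words of a transcript, and coding sequences were aligned with Biopython 1.88. Results of 1 single gene are not reported here.

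The 8 transcripts and the lists were chosen with earlier results of these data known. Named genes were the 8, their source, overlapping and nearest tested genes, the 2 most correlated genes of each, and listed genes that were called. Genes named from the on-off and within-group counts were chosen after their values were seen. Alternatives were RLE normalization, other filters, DESeq2 1.42.0, a fit of all 12 libraries, robust fitting, the replicate block, a threshold of 0.05 and each library left out.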

Additional observations from a re-analysis of the deposited data

Results flagged for a closer look

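Among 45 sets of 4 libraries (8 transcripts and 7 related genes in 3 groups), 3 had a library far from the others, by a gap over the whole range that reached 1 where the critical value is 0.829, and chance alone marks about 1 in 20. In each the other 3 libraries were at 0, so the ratio is 1 for any count in the remaining library. The critical value and its rate therefore do not measure these 3 sets. They were Gm6612 in CON, where replicate 1 had 1 count (0.0410 CPM), Gm6505 in GF, where replicate 3 had 2 counts (0.107 CPM), and Gm5134 in GF, where replicate 1 had 7 counts (0.521 CPM). Of these only Gm5134 passed the floor of 3 counts, in the shallowest library. The cause was not tested.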

How the results depend on the processing

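Of all genes, 39 were called between CON and GF, 11 between CON and exGF and 0 between GF and exGF (1035 at an unadjusted p under 0.05). These became 221, 48 and 32 with all genes of at least 1 count kept, and 204, 60 and 21 by DESeq2. With at least 10 counts in every library CON against exGF gave 7, and a fit of all 12 libraries gave 2 for GF against exGF. Leaving out each library in turn gave 27 to 60, 8 to 14 and 0 to 7, the extremes being without CON replicate 3, GF replicate 2, CON replicate 1, CON replicate 4 and GFR1. Calls among source, overlapping and neighbouring genes between CON and GF went from 0 to 1 without the filter, 3 by DESeq2 and 1 with the replicate block, and stayed at 0 with each library left out.

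The replicate block gave 51 calls between CON and GF. Deviations of same-numbered CON and GF libraries correlated at -0.0539 to 0.0258 over 16032 genes, so the samples share only a number.

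Of the transcripts, 4 to 6 were called in CON against exGF and 5 or 6 in CON against GF, except where at least 10 counts in every library were asked, which left 3 to test, of which 3 and 2 were called. These counts repeat the contrasts on which the transcripts were chosen, and their stability supports nothing. Gm15772 in exGF lost its call without CON replicate 1, 2 or 3 or without GFR1, GFR2 or GFR3, Gm6505 in GF without CON replicate 3, without GF replicate 4 and in the fit of all 12 libraries, and Gm10039 with robust fitting in GF and in exGF. Between GF and exGF, Gm15772 gained a call without GFR4, Gm5134 without GFR1, and both without the filter. Between CON and exGF, Gm5134 gained a call without the filter, by DESeq2, in the fit of all 12 libraries and without GFR1. GF and exGF did not overlap for 3 transcripts without GFR1, and for 1 to 3 with each library left out.

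Genes on in one group and off in the other, 5 between CON and GF and 2 between CON and exGF, became 1 and 1 with limits of at most 5 and at least 20 counts. With each library left out they were 5 to 11 between CON and GF (9 without CON replicate 1 and 11 without GF replicate 2) and 0 to 3 between GF and exGF. The median share of the 8 transcripts found in other genes was 88.4% with 31-base words and 51.6% with windows of 100 bases in annotated transcripts, chosen after seeing the data because the whole genome was not used here.

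Small fold changes of tested related genes changed sign with a library left out, each with an adjusted p over 0.89: Rpl26 in GF between -0.0076 and 0.53, Adsl in GF between -0.047 and 0.079, and Atp5g1 from GF to exGF between -0.20 and 0.035. Gm6612, Gm6505 and Gm3636 rest on at most 26 counts in any library, so at this depth a pool at 0 counts cannot tell a low level from an absence.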
